A study of Mus musculus with 6 samples.

Results

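NRF2, encoded by Nfe2l2, is a transcription factor that turns on genes against oxidants and reactive chemicals. The protein KEAP1 holds NRF2 in the cytosol and directs its destruction, and oxidants that modify KEAP1 release NRF2 to the nucleus. There it binds DNA together with a small MAF protein, MAFF, MAFG or MAFK. Its targets make and recycle glutathione, run the thioredoxin and peroxiredoxin cycles that reduce peroxides, and detoxify quinones, aldehydes and carbonyls. Dendritic cells, which take up antigen and present it to T cells, make oxidants themselves when activated.

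The genes described here are 43 genes of this system, chosen by name from the 55740 gene models of the deposited table, and each of the 43 had a row there. Earlier results of these data were known when the genes were chosen, so counts over them are descriptions. The samples were bone marrow-derived dendritic cells of C57BL/6J mice, 3 given 18 mM lysine for 6 h and 3 given phosphate-buffered saline (PBS). No genetic change is named for either group. Nothing in the labels ties a replicate to its own culture or mouse, and the p-values therefore reflect the spread among these 6 samples, part or all of it possibly technical. Values are TPM, the share of all transcripts that a gene holds after correction for transcript length, so levels can be compared between genes. The table gives no counts and the sequencing depth is unknown. A gene was tested where at least 3 samples reached 1 TPM, with limma on log2(TPM + 1), and was called at an adjusted p under 0.05. Adjusted p-values are Benjamini-Hochberg values over all 12539 tested genes. The fold changes on this log2 scale are given ± standard error (SE) and understate the change of low genes. In bulk RNA, fewer cells of a type and less RNA per cell cannot be told apart.

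For the dendritic cell label 10 marker genes were read. All were tested and 8 were not called, where 55.1% of all tested genes were called. A marker that is not called does not show what the cells are. Flt3 averaged 1.24 TPM with lysine and 1.83 TPM with PBS, and Dpp4 1.87 TPM with lysine and 2.93 TPM with PBS. Zbtb46 averaged 8.57 TPM with lysine and 16.3 TPM with PBS, where PBS replicate 2 was at 32.85 TPM. Batf3, a transcription factor gene of conventional dendritic cells, fell to 39.2 TPM with lysine, against 96.2 TPM with PBS (log2 fold change -1.24 ± 0.179, adjusted p = 0.00141). Cd86, a costimulatory gene, rose to 59.8 TPM with lysine, against 44.2 TPM with PBS (log2 fold change 0.42 ± 0.102, adjusted p = 0.012). Itgax, which encodes CD11c, averaged 378 TPM with lysine and 364 TPM with PBS, and the migration receptor gene Ccr7 averaged 447 TPM with lysine and 448 TPM with PBS. Of 10 macrophage and monocyte markers 4 fell with lysine, 6 were not called, and the summed level of the 10 was 1149.6 to 1262 TPM with lysine and 1286 to 1320.1 TPM with PBS. Of 8 neutrophil markers 3 were tested and 1 fell, S100a8. Their sum was 35.8 to 44.6 TPM with lysine and 75.3 to 115.6 TPM with PBS, and Elane was listed at 0 in all 6 samples. The mast cell and basophil markers summed to 8.03 to 12.69 TPM with lysine and 13.14 to 18.25 TPM with PBS, and Cpa3, a mast cell protease gene, fell to 0.42 TPM with lysine, against 4.39 TPM with PBS (adjusted p = 0.00225). The lymphocyte markers summed to 1.34 to 8.54 TPM with lysine and 2.88 to 9.63 TPM with PBS, and the erythroid markers to at most 2.88 TPM in any sample. The part of these cell types in the results was not tested. Replicate 3 of each group stood apart from the other replicates on the second principal component, which held 11.6% of the variance. H2-Ab1, an MHC class II gene, was at 677 TPM in lysine replicate 3 and 354 and 360 TPM in the other lysine samples, against 741 TPM in PBS replicate 3 and 319 and 338 TPM in the other PBS samples. The counts were therefore also made without replicate 3 of both groups.

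With lysine, most of the antioxidant genes fell while the gene of their activator rose. Of the 42 genes tested, 28 (66.7%) were lower with lysine, where 29.3% of all tested genes were lower. Another 5 (11.9%) were higher, where 25.8% of all tested genes were higher. In all 33 were called, where 55.1% of all tested genes were, and 9 were not. The falls were led by Srxn1, Nqo1 and Gss, which were 6.27-fold, 5.88-fold and 4.50-fold lower. The rises were Mafk, Maff, Osgin1, Nfe2l2 and Gsto1. Leaving out replicate 3 of both groups gave 30 lower and 6 higher, with Gstm1 and Mgst1 passing as lower and Txn2 as higher.

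At least 2-fold falls on the log2(TPM + 1) scale were found for 11 genes (26.2%), against 6.75% of all tested genes. At least 2-fold rises were found for 2 genes (4.76%), against 6.28% of all tested genes. The median log2 fold change of the 42 genes was -0.48, and that of all tested genes was -0.05. The lysine samples lay below all PBS samples for 28 genes, as they did for 33.7% of all tested genes, and above them for 5 genes, against 29.7% of all tested genes. The groups thus did not overlap for 33 genes, where 63.4% of all tested genes did not. Together the 43 genes made up 10352, 10429 and 10243 TPM in the lysine samples, against 16163, 15659 and 13453 TPM in the PBS samples. The gene not tested was Gsta4, a glutathione transferase gene, which stayed under 1 TPM in every sample.

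**Figure D1:**
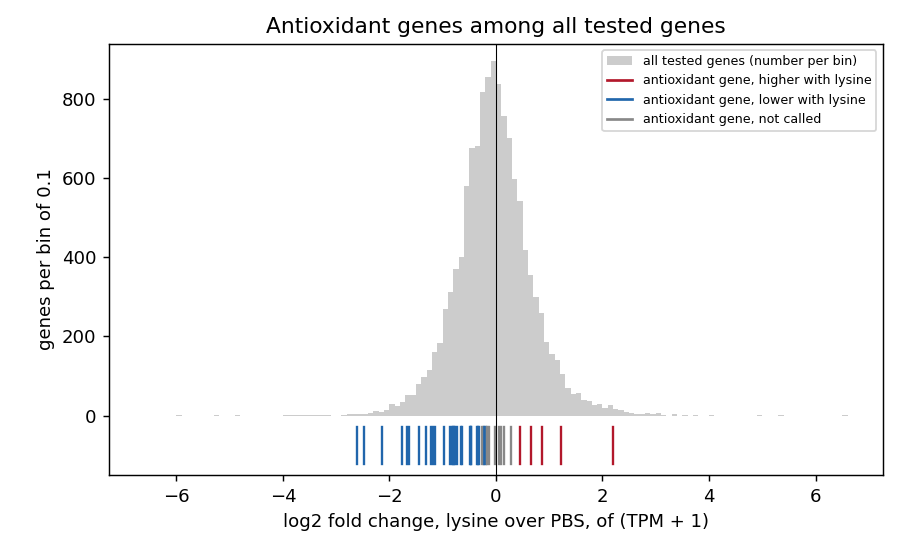
Histogram of log2 fold changes (lysine over PBS, of TPM + 1) for the 12539 tested genes in grey, in bins of 0.1, with a tick below it for each of the 42 tested antioxidant genes, coloured by call. Most ticks lie left of 0, down to -2.61 for Srxn1, and the rightmost tick is Mafk at 2.19.

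NRF2 with a small MAF protein binds the antioxidant response element, whose core is commonly written TGACNNNGC. RefSeq windows of 300 bases, 250 before and 50 after an annotated start, were available for 38 of the 43 genes in GRCm38.p6, the others being Gsta4, Gsr, Prdx6, Gstt2 and Gclc. Both strands were searched. The core was found for 11 of these 38 genes (28.9%), against 13.99% of 27025 genes in the RefSeq table. It was found for 3 of 5 genes that rose, 7 of 25 that fell and 1 of 8 that were not called. Another form of equal length, TGANTCAGC, also contains the AP-1 site and matches the core only where its N is C. It was found for 5 of the 38 (13.2%), against 1.37% of the table. A match is a description of letters and not a shown binding site, and genes with more than 1 annotated start had more windows to match.

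Those 5 matches of TGANTCAGC are shown, in 4 genes that fell and in Osgin1, which rose. In Srxn1, Gstp1 and Osgin1 the match reads TGAGTCAGC, which is not the core. Each line is 61 bases of GRCm38.p6, 5′ to 3′ on the strand that reads TGANTCAGC, with that match in capitals.
Srxn1: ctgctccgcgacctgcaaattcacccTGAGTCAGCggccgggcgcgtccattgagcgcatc
Prdx1: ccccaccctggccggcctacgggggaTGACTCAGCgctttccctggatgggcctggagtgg
Gstp1: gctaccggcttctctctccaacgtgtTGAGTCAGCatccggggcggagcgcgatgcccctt
Me1: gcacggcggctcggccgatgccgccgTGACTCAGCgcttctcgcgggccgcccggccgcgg
Osgin1: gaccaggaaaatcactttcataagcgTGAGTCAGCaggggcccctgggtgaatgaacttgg
The Srxn1 window is chr2:152105453-152105513 on the plus strand, and that of Prdx1 is chr4:116685440-116685500 on the minus strand. Gstp1 is shown from chr19:4037952-4038012, Me1 from chr9:86695886-86695946 and Osgin1 from chr8:119437022-119437082, all on the minus strand. Counted from the annotated RefSeq start of each window and read along the gene, the matches began at -45 in Srxn1, -133 in Prdx1, -74 in Gstp1, -6 in Me1 and -99 in Osgin1. The Osgin1 window, chr8:119436897-119437196, belongs to a start inside the gene, which spans chr8:119434124-119446256 on the plus strand. Its match is therefore not upstream of the first base of the gene. The same holds for Me1, which spans chr9:86581371-86695953 on the minus strand, so that the bases shown lie inside the gene. Gstp1 spans chr19:4035407-4037985 on the minus strand, and its match straddles the first base of the gene.

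The whole Srxn1 window, chr2:152105274-152105573 on the plus strand, is printed because Srxn1 fell the most of all 42 genes. Its capitals mark TGANTCA and TGANTCAGC, the first at -102 and the second at -45. No share over other genes was computed for the shorter TGANTCA. The core TGACNNNGC is not in capitals. Its match counted for Srxn1, TGACCTAGC, is on the minus strand at position 29 after the start and reads here as its reverse complement.
Srxn1: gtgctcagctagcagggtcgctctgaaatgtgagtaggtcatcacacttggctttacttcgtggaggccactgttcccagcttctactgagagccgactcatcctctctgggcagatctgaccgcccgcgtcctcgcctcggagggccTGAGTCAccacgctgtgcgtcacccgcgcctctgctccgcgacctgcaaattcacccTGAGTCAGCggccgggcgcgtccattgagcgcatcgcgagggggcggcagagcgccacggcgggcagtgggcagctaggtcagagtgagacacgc

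Among the regulators, the activator gene and 2 of its small MAF partners rose, while the inhibitor gene and the other small MAF gene fell. Nfe2l2 (chr2:75675513-75704641 in GRCm38) was at 341.39, 330.32 and 381.24 TPM with lysine, against 223.98, 224.08 and 216.73 TPM with PBS. Every lysine sample was above every PBS sample, and the log2 fold change was 0.66 ± 0.0652 (adjusted p = 0.000326). Keap1 (chr9:21229730-21239361), which encodes the protein that marks NRF2 for destruction, was at 14.58, 15.14 and 16.90 TPM with lysine, against 30.66, 29.04 and 34.63 TPM with PBS. That is a 2.02-fold lower mean (log2 fold change -0.97 ± 0.0938, adjusted p = 0.000299), and the groups did not overlap. The antisense model Gm16754 shares 10.9% of the Keap1 exon bases and was also lower with lysine, at 0.45 to 1.14 TPM, against 2.01 to 2.63 TPM with PBS. The use of strand in counting is nowhere recorded, so reads of overlapping genes on opposite strands cannot be told apart.

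The small MAF genes encode proteins that have no activating region of their own, pair with NRF2 on DNA and can also pair with each other or with the repressor BACH1. Mafk (chr5:139791513-139802653) had 85.60, 83.02 and 82.80 TPM with lysine and 18.11, 15.99 and 18.58 TPM with PBS. Its 4.77-fold higher level was the largest rise among the 42 genes (log2 fold change 2.19 ± 0.0725, adjusted p = 1.32e-05). Maff (chr15:79346621-79359076) had 50.05, 47.24 and 40.87 TPM with lysine and 19.11, 18.81 and 19.30 TPM with PBS, a 2.41-fold rise (log2 fold change 1.22 ± 0.0862, adjusted p = 9.68e-05). Mafg went the other way, with 39.55, 36.22 and 36.10 TPM with lysine and 67.40, 72.24 and 58.75 TPM with PBS (log2 fold change -0.81 ± 0.0898, adjusted p = 0.000523). In order of mean level, the small MAF genes thus ran Mafk, Maff and Mafg with lysine, and Mafg, Maff and Mafk with PBS, where Maff and Mafk differed by little, 19.1 ± 0.247 and 17.6 ± 1.38 TPM (SD, n = 3). Mafg shares 124 exon bases, 2.21% of its exons, with Sirt7, a neighbour on the same strand. Sirt7 was at 74.90 to 87.63 TPM with lysine and 88.39 to 108.01 TPM with PBS. The share of Sirt7 reads in the value of Mafg was not tested.

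Osgin1, a target of NRF2 whose product restrains growth, is the least certain of the rises. It had 24.95, 29.74 and 58.33 TPM with lysine and 18.65, 18.00 and 20.27 TPM with PBS. The groups did not overlap, but lysine replicate 3 was far above the others, and the log2 fold change of 0.86 ± 0.292 (adjusted p = 0.0432) was 0.50 without that sample (adjusted p = 0.00939). The call was lost without PBS replicate 1, 2 or 3 (adjusted p = 0.1002, 0.107 and 0.0826) and without lysine replicate 2 (0.0588). It was also lost when all genes above 0 were tested (0.106) and in limma without the intensity trend (0.0533).

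**Figure D2:**
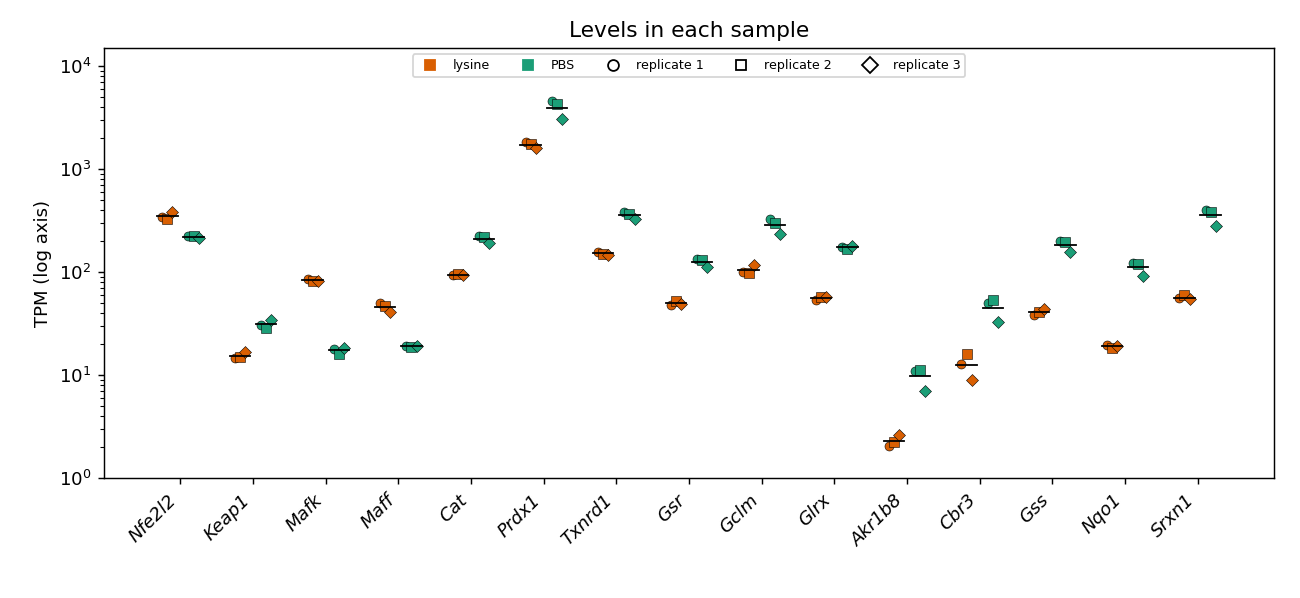
TPM on a log axis in each lysine sample (orange) and each PBS sample (green) for Nfe2l2, Keap1 and the 13 antioxidant genes that changed at least 2-fold. Marker shapes are the replicates and black lines the group means. In each gene the groups are separate, and PBS replicate 3 (diamond) lies below the other PBS samples in most of the genes that fell.

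All 4 genes of glutathione synthesis and recycling fell, where 29.3% of all tested genes fell. Glutathione is a small peptide that donates electrons to peroxides and toxins, and it is built in 2 steps. The first step is run by glutamate-cysteine ligase, made of a catalytic subunit (Gclc) and a modifier subunit (Gclm). Gclm had 99.63, 97.66 and 117.25 TPM with lysine and 326.67, 302.16 and 236.97 TPM with PBS, 2.75-fold lower (log2 fold change -1.44 ± 0.133, adjusted p = 0.000252). Gclc had 22.92, 24.38 and 22.12 TPM with lysine and 55.71, 49.68 and 28.46 TPM with PBS (log2 fold change -0.86 ± 0.236, adjusted p = 0.0197). PBS replicate 3 was close to the lysine samples for Gclc. That call was lost without lysine replicate 1 (adjusted p = 0.0540) or 3 (0.0509) or PBS replicate 1 (0.0556) or 2 (0.0647), and when all genes above 0 were tested (0.0543).

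Glutathione synthetase, encoded by Gss (chr2:155563181-155592810), runs the second step. Gss had 38.59, 40.83 and 43.70 TPM with lysine and 199.32, 197.47 and 157.52 TPM with PBS (log2 fold change -2.14 ± 0.105, adjusted p = 3.42e-05). The groups lay far apart. The gene Acss2 on the opposite strand shares 395 of its exon bases, 6.68% of the Gss exons, and had 6.48, 6.97 and 9.78 TPM with lysine and 76.77, 69.23 and 80.36 TPM with PBS. The share of Acss2 reads in the value of Gss was not tested. Gsr encodes glutathione reductase, which returns oxidised glutathione to its reduced form. It had 48.50, 52.16 and 48.70 TPM with lysine and 133.93, 131.36 and 112.23 TPM with PBS (2.53-fold lower, log2 fold change -1.32 ± 0.082, adjusted p = 6.87e-05).

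The glutathione peroxidase genes, whose products reduce peroxides with glutathione, had log2 fold changes between -0.33 and 0.09. Gpx1, the most abundant of the 3, had 1292, 1318 and 1351 TPM with lysine and 1592, 1618 and 1784 TPM with PBS (log2 fold change -0.33 ± 0.0596, adjusted p = 0.00359). Gpx4, whose product reduces lipid peroxides in membranes, had 695.18, 683.78 and 646.26 TPM with lysine and 792.18, 773.98 and 741.14 TPM with PBS. The Gpx4 fall was small, -0.19 ± 0.0527 on the log2 scale (adjusted p = 0.0219). The call was lost under median-of-ratios scaling (0.124), when all genes above 0 were tested (0.0522) and without the trend (0.0612), and without lysine replicate 2 (0.0578), PBS replicate 1 (0.0828) or PBS replicate 2 (0.0742). Of the 75-base words of Gpx4 transcripts 29.8% also occur in the pseudogene Gpx4-ps2, which was at 3.94 TPM or less in every sample. Gpx3, which encodes a secreted peroxidase, was at 3.31 to 4.77 TPM with lysine and 3.18 to 4.35 TPM with PBS and was not called (log2 fold change 0.09, 95% interval -0.28 to 0.46).

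The glutathione transferases couple glutathione to toxins. Of 7 tested, 1 rose, 3 fell and 3 were not called, so 4 of 7 were called, where 55.1% of all tested genes were. Gsto1, the most abundant of them and the only 1 of the 7 called higher, encodes an omega-class enzyme that also reduces oxidised vitamin C. It had 486.36, 517.35 and 525.62 TPM with lysine and 364.23, 411.83 and 348.73 TPM with PBS (log2 fold change 0.45 ± 0.0743, adjusted p = 0.00266). Its share of the summed TPM of the 8 transferase genes was 49.95%, 50.2% and 54.2% in the lysine samples, against 36.8%, 40.5% and 39.7% in the PBS samples. The summed TPM of the family overlapped between groups, 969 to 1030.4 TPM with lysine and 878 to 1017 TPM with PBS.

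The pi-class gene Gstp1 had 39.29, 41.56 and 44.24 TPM with lysine and 68.01, 60.72 and 82.15 TPM with PBS (log2 fold change -0.73 ± 0.116, adjusted p = 0.00212). Gstp1 shares 29.2% of its 75-base words with Gstp2, which reached at most 1.45 TPM, so its value is only as certain as the split of such reads. Of the membrane-bound enzymes, Mgst3 had 10.38, 10.54 and 12.42 TPM with lysine and 19.47, 20.93 and 19.13 TPM with PBS (log2 fold change -0.79 ± 0.0921, adjusted p = 0.000629), and Mgst2 fell by 0.66 on the log2 scale (adjusted p = 0.00218). Mgst1, the most abundant membrane-bound transferase gene, was not called at 203.73, 226.59 and 182.61 TPM with lysine and 262.02, 257.46 and 201.59 TPM with PBS (log2 fold change -0.23, 95% interval -0.53 to 0.070). Without PBS replicate 3 it passed (log2 fold change -0.35, adjusted p = 0.0302). The log2 fold changes of Gstm1 and Gstt2, also not called, were -0.13 (95% interval -0.39 to 0.12) and -0.17 (-0.69 to 0.34). Gstm1 transcripts share 11.65% of their 75-base words with other genes.

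In the thioredoxin system the reductase and the repair enzymes fell most, and thioredoxin itself little. Thioredoxin reduces disulfides in proteins and peroxiredoxins, thioredoxin reductase recharges it with NADPH, and sulfiredoxin rescues peroxiredoxins that have been over-oxidised. Srxn1 (chr2:152105516-152111376), which encodes sulfiredoxin, had 55.90, 59.67 and 54.53 TPM with lysine and 401.92, 381.50 and 283.51 TPM with PBS. The log2 fold change was -2.61 ± 0.133 (adjusted p = 3.86e-05), and the lowest PBS sample was still far above the highest lysine sample. Txnrd1, the cytosolic reductase gene, had 157.59, 151.44 and 147.96 TPM with lysine and 381.67, 366.51 and 326.02 TPM with PBS (2.35-fold lower, log2 fold change -1.22 ± 0.0707, adjusted p = 5.69e-05). Glrx encodes glutaredoxin, which removes glutathione from proteins. It had 53.22, 57.65 and 57.48 TPM with lysine and 174.84, 169.17 and 180.86 TPM with PBS (3.12-fold lower, log2 fold change -1.62 ± 0.0577, adjusted p = 1.55e-05).

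Txnrd2 encodes the mitochondrial reductase and was low throughout, with 4.36, 3.97 and 5.47 TPM with lysine and 7.56, 6.31 and 9.17 TPM with PBS (log2 fold change -0.63 ± 0.161, adjusted p = 0.0154). Without lysine replicate 2 it missed the threshold (adjusted p = 0.0512). Cytosolic Txn1 had 483.61, 501.64 and 494.35 TPM with lysine and 596.19, 586.56 and 542.06 TPM with PBS, a small fall (log2 fold change -0.22 ± 0.054, adjusted p = 0.0131). The Txn1 call was lost under median-of-ratios scaling (adjusted p = 0.0683) and without lysine replicate 1 (0.0516) or PBS replicate 1 (0.0544) or 2 (0.0541). Txn2, the mitochondrial thioredoxin gene, was not called at 144.85, 135.86 and 172.89 TPM with lysine and 116.62, 118.02 and 137.92 TPM with PBS (log2 fold change 0.28, adjusted p = 0.0694). It passed as higher under median-of-ratios scaling (adjusted p = 0.0197) and without PBS replicate 3 (log2 fold change 0.36, adjusted p = 0.0419).

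Peroxiredoxins are abundant peroxide-reducing enzymes, and Prdx1 held most of their transcripts. Prdx1 (chr4:116685544-116700822) had 1817, 1735 and 1593 TPM with lysine and 4589.98, 4236 and 3039 TPM with PBS (2.31-fold lower, log2 fold change -1.18 ± 0.154, adjusted p = 0.000954). By mean TPM it ranked 80 with lysine and 25 with PBS among the tested genes. Its share of the summed TPM of the 6 peroxiredoxin genes was 60.7%, 58.2% and 55.0% in the lysine samples, against 72.6%, 70.9% and 66.8% in the PBS samples. The family sum was 2993, 2983 and 2898 TPM with lysine, against 6326, 5978 and 4553 TPM with PBS.

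The other peroxiredoxin genes fell less or were not called. Prdx5, the next most abundant, encodes an enzyme of mitochondria, peroxisomes and cytosol. It had 749.08, 793.53 and 847.01 TPM with lysine and 1176, 1182 and 999.94 TPM with PBS (log2 fold change -0.49 ± 0.0842, adjusted p = 0.00306). The opposite-strand gene Trmt112 shares 19.1% of the Prdx5 exon bases and was higher with lysine, at 82.11 to 90.31 TPM, against 64.89 to 65.84 TPM with PBS. Prdx3, of mitochondria, fell by 0.77 on the log2 scale (adjusted p = 6e-04), and Prdx6, which uses glutathione in place of thioredoxin, by 0.47 (adjusted p = 0.00437). Prdx2, a cytosolic relative of Prdx1, was at 152.59, 154.74 and 166.34 TPM with lysine and 153.24, 158.28 and 166.74 TPM with PBS. Its groups overlapped, and the 95% interval of its log2 fold change ran from -0.16 to 0.13. Prdx2 shares 173 exon bases with the opposite-strand gene Junb, which had 1021.7 to 1193.5 TPM with lysine and 207 to 244 TPM with PBS. Prdx4, of the endoplasmic reticulum, was not called either (log2 fold change 0.14, 95% interval -0.25 to 0.53).

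**Figure D3:**
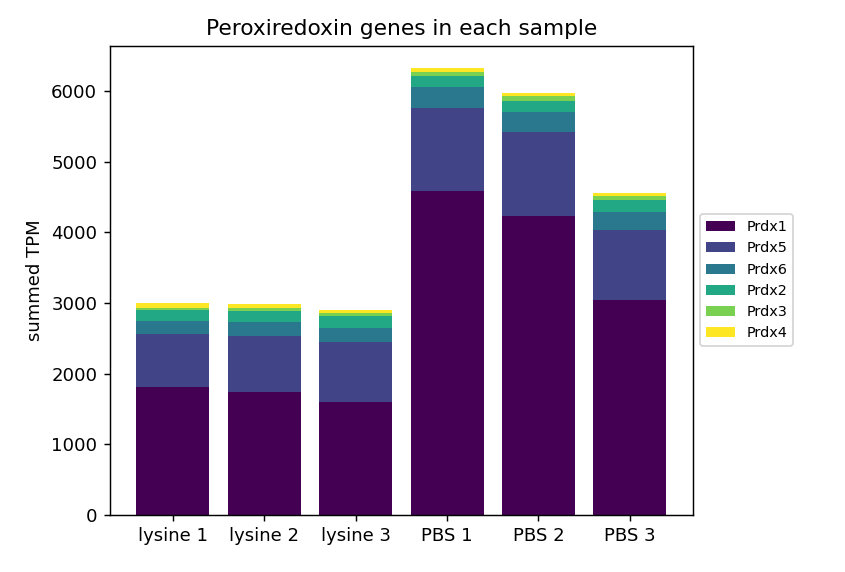
Stacked bars of TPM for the 6 peroxiredoxin genes in each lysine and PBS sample. The bars sum to 2898 to 2993 TPM with lysine and 4553 to 6326 TPM with PBS, and the Prdx1 block accounts for most of the difference in height.

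Of the enzymes that remove superoxide and hydrogen peroxide directly, catalase and cytosolic superoxide dismutase fell and mitochondrial superoxide dismutase was not called. Cat, which encodes the peroxisomal enzyme catalase, had 94.70, 95.78 and 94.00 TPM with lysine and 222.21, 220.99 and 191.04 TPM with PBS (2.23-fold lower, log2 fold change -1.14 ± 0.0707, adjusted p = 6.68e-05). Sod1, the cytosolic dismutase gene, had 224.38, 224.46 and 255.21 TPM with lysine and 275.60, 294.45 and 306.92 TPM with PBS (log2 fold change -0.32 ± 0.0727, adjusted p = 0.00992). Sod2, its mitochondrial counterpart, is a known target of NF-kB. It was at 669.54, 663.76 and 514.92 TPM with lysine and 642.81, 606.13 and 516.91 TPM with PBS, overlapped and was not called (log2 fold change 0.06, 95% interval -0.25 to 0.37). Of the 75-base words of Sod2 transcripts 16.2% occur in other gene models.

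Quinone, aldehyde and carbonyl reductase genes fell in 5 of 6 cases, where 29.3% of all tested genes fell. Nqo1 (chr8:107388225-107403206), which encodes the quinone reductase often read as a gauge of NRF2 activity, had 19.60, 18.41 and 19.12 TPM with lysine and 124.06, 120.45 and 91.28 TPM with PBS. The log2 fold change was -2.48 ± 0.121 (adjusted p = 3.36e-05). By mean TPM Nqo1 ranked 5052 with lysine and 1081 with PBS among the tested genes. Akr1b8, an aldo-keto reductase gene, had 2.07, 2.25 and 2.65 TPM with lysine and 10.92, 11.32 and 7.08 TPM with PBS (log2 fold change -1.68 ± 0.184, adjusted p = 0.000491). The abundant aldehyde reductase gene Akr1a1 had 1681, 1690.2 and 1674 TPM with lysine and 2320.1, 2239 and 1928 TPM with PBS, a smaller fall (log2 fold change -0.36 ± 0.0766, adjusted p = 0.00744). Akr7a5, of another aldo-keto reductase family, fell by 0.82 on the log2 scale (adjusted p = 0.0012). Its levels were low, 5.26 ± 0.52 TPM with lysine and 10.1 ± 1.10 TPM with PBS (SD, n = 3).

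The neighbouring carbonyl reductase genes Cbr3 and Cbr1 on chromosome 16 differed. Cbr3 had 12.91, 16.01 and 9.07 TPM with lysine and 50.13, 53.18 and 32.68 TPM with PBS (3.58-fold lower, log2 fold change -1.76 ± 0.247, adjusted p = 0.00129). Cbr1 overlapped between groups, at 18.04, 23.51 and 18.87 TPM with lysine and 26.57, 22.71 and 23.35 TPM with PBS, and was not called (log2 fold change -0.26, adjusted p = 0.103). Without lysine replicate 2 it passed as lower (log2 fold change -0.37, adjusted p = 0.0271). Me1, which encodes the cytosolic malic enzyme that makes NADPH, was low, at 2.26 ± 0.16 TPM with lysine and 3.54 ± 0.272 TPM with PBS (SD, n = 3). It fell by 0.48 on the log2 scale (adjusted p = 0.00991), and the call was lost when all genes above 0 were tested (adjusted p = 0.0523). Me1 transcripts share 16.4% of their 75-base words with other gene models.

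**Figure D4:**
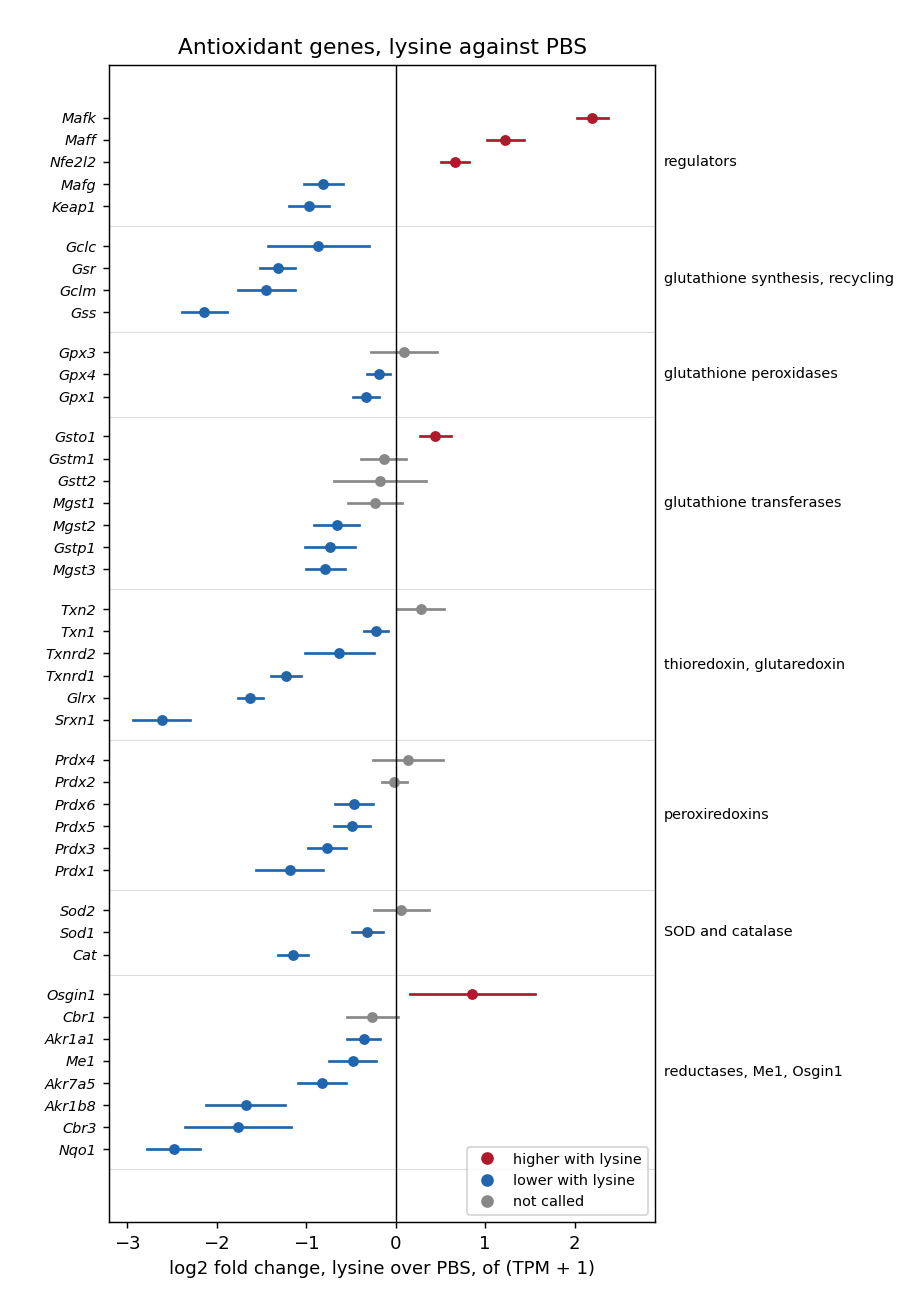
Log2 fold change (lysine over PBS, of TPM + 1) of the 42 tested antioxidant genes by role, as points with 95% intervals from limma. Red genes were called higher, blue lower and grey not called. Srxn1, Nqo1 and Gss lie farthest left, and Mafk, at 2.19, farthest right.

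Related genes were compared as 10 pairs by their log2 ratio in each sample. The groups did not overlap for 8 of the pairs, each with p = 0.1 in a two-sided exact permutation test, the smallest that 3 against 3 samples allow (0.125 adjusted over the 10 pairs). Of single tested genes 63.4% did not overlap either, and no share over other pairs of genes was computed, so the count of 8 is a description of these pairs. The design cannot reach 0.05. Nfe2l2 exceeded Keap1 by 4.41 ± 0.0494 with lysine and 2.78 ± 0.153 with PBS (mean log2 ratio ± SD, n = 3), a difference of 1.63. The Cbr3 to Cbr1 log2 ratio was -0.65 ± 0.286 with lysine and 0.85 ± 0.364 with PBS, so the more abundant gene of the pair switched. For Prdx1 to Prdx2 the log2 ratio was 3.43 ± 0.162 with lysine and 4.603 ± 0.375 with PBS. For Txnrd1 to Txnrd2 it was 4.78 ± 0.225 with lysine and 5.38 ± 0.334 with PBS, and for Txn1 to Txn2 1.71 ± 0.185 with lysine and 2.20 ± 0.207 with PBS. The log2 ratio of Gclc to Gclm was -2.13 ± 0.204 with lysine and -2.71 ± 0.266 with PBS, that of Prdx5 to Prdx1 -1.11 ± 0.184 with lysine and -1.80 ± 0.184 with PBS, and that of Mgst1 to Mgst3 4.08 ± 0.274 with lysine and 3.52 ± 0.179 with PBS. The log2 ratios of Gpx1 to Gpx4 and of Sod1 to Sod2 overlapped between groups (exact permutation p = 0.3 each).

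Further genes of the pathway were read from lists chosen by their known role, with earlier results of these data known. Their counts are therefore descriptions and not independent support. Over all tested genes 29.3% fell and 25.8% rose, which is the background for each count here. Of 24 other tested NRF2 targets 15 fell, 1 rose and 8 were not called, with a median log2 fold change of -0.69. Hmox1, which encodes the haem-degrading enzyme HO-1, averaged 477 TPM with lysine and 2321 TPM with PBS (log2 fold change -2.28 ± 0.0485, adjusted p = 3.1e-06). Abcc1, which encodes an exporter of glutathione conjugates, averaged 23.6 TPM with lysine and 82.4 TPM with PBS (log2 fold change -1.76 ± 0.0746), and Blvrb, a biliverdin reductase gene, 178 TPM with lysine and 479 TPM with PBS (log2 fold change -1.42 ± 0.0708). Slc7a11, which encodes the importer of cystine for glutathione synthesis, had 91.48, 90.01 and 87.31 TPM with lysine and 153.14, 153.48 and 118.25 TPM with PBS (log2 fold change -0.64 ± 0.107, adjusted p = 0.00264). The target that rose was Sqstm1, which encodes the autophagy receptor p62 that binds KEAP1 (log2 fold change 0.41 ± 0.106, adjusted p = 0.0154). The ferritin genes Fth1 and Ftl1, named after their values were seen, had log2 fold changes of -0.05 and -0.20 and were not called. Also named after their values were seen, G6pdx and Pgd, whose products make NADPH in the pentose phosphate pathway, had log2 fold changes of -1.30 and -1.13. Tkt and Taldo1, of the branch of that pathway that makes no NADPH, had log2 fold changes of -1.10 and -0.74, and each of these genes was called lower.

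Among 11 tested genes of other NRF2 regulators and partners 5 rose, 4 fell and 2 were not called, where 25.8% of all tested genes rose and 29.3% fell. Cul3, the scaffold of the ubiquitin ligase that KEAP1 serves, rose to 76.4 TPM with lysine, against 44.6 TPM with PBS (log2 fold change 0.76 ± 0.072, adjusted p = 0.000275). Crebbp, a coactivator gene, rose by 0.98 ± 0.0975 on the log2 scale (adjusted p = 0.000326). Syvn1, which encodes a ubiquitin ligase of the endoplasmic reticulum that can act on NRF2, fell by 1.002 ± 0.0748 (adjusted p = 0.000119). The repressor gene Bach1, named after its values were seen, had 13.66, 14.15 and 14.63 TPM with lysine and 17.47, 17.84 and 17.73 TPM with PBS (log2 fold change -0.30 ± 0.0666, adjusted p = 0.0083).

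Of 17 other tested glutathione genes 4 rose, 7 fell and 6 were not called, where 25.8% of all tested genes rose and 29.3% fell. Chac1, which encodes an enzyme that breaks glutathione down, was at 2.02, 2.35 and 2.13 TPM with lysine and 0.20, 0.22 and 0.25 TPM with PBS (log2 fold change 1.37 ± 0.125, adjusted p = 0.000243). Hpgds, a prostaglandin D synthase of the transferase family, was also low and rose by 1.51 ± 0.175 (adjusted p = 0.000616), and Gstz1 fell by 0.75 ± 0.11 (adjusted p = 0.00153). Of 19 other thioredoxin-fold and methionine sulfoxide reductase genes 3 rose, 9 fell and 7 were not called, against the same shares of all tested genes. Txnip, which encodes an inhibitor of thioredoxin, had 536.93, 552.18 and 556.80 TPM with lysine and 260.91, 276.00 and 312.12 TPM with PBS (log2 fold change 0.96 ± 0.0732, adjusted p = 0.000129). Txnl4a, a splicing factor gene with a thioredoxin fold, rose by 1.19 ± 0.0832 (adjusted p = 9.63e-05), and Txndc9 fell by 0.76 ± 0.0631 (adjusted p = 0.000168).

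A further list held genes of enzymes that make oxidants and genes that aid them, such as Rac1, Rac2 and Hvcn1. Of 10 tested, 7 fell, 1 rose and 2 were not called, where 29.3% of all tested genes fell and 25.8% rose. Rac2 and Hvcn1 were among the falls, and Hvcn1 overlapped between groups (adjusted p = 0.0486). Ncf1 and Ncf4 encode cytosolic subunits of the phagocyte NADPH oxidase. Ncf1 had 136.21, 139.05 and 195.76 TPM with lysine and 331.57, 327.64 and 366.88 TPM with PBS (log2 fold change -1.14 ± 0.144, adjusted p = 0.000847). Ncf4 fell by 0.77 ± 0.0873 on the log2 scale (adjusted p = 0.000554). The rise was Nos2, which encodes the inducible nitric oxide synthase, with 380.59, 365.65 and 308.27 TPM with lysine and 186.90, 170.68 and 148.28 TPM with PBS (log2 fold change 1.06 ± 0.113, adjusted p = 0.000437). The oxidase subunits are myeloid genes. The part of the macrophage and monocyte markers given above, of which 4 of 10 were lower where 29.3% of all tested genes were, was not tested.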

How the data were processed

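Per the series' design text, the authors quantified gene abundance with RSEM and expressed it as TPM. The deposited table holds TPM with 2 decimals, with a column per sample. Per the submitters' processing notes, the tools included HISAT2, StringTie, RSEM and edgeR, and the build was GRCm38.p6. What each tool did, its version, the annotation and any use of strand remain not given in the sources used here. Columns marked K, the 1-letter code of lysine, were matched to the lysine samples by replicate number.

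TPM keeps no depth, so no counting error is given. A gene entered the test where 3 or more samples reached 1 TPM. All 6 samples were fitted with limma 3.58.1 (R 4.3.3), with an intensity trend, on log2(TPM + 1), and Benjamini-Hochberg adjustment. The fit was checked on simulated data. Pairs of genes were compared with exact permutation tests (scipy 1.17.1). Plots were drawn with matplotlib 3.10.9. Gene positions and shared 75-base words came from GENCODE M21 (GRCm38), which held all 43 genes, and promoter windows from RefSeq. The genes and lists were chosen with earlier results of these data known. Values per sample are given for the regulators, Osgin1, genes changed at least 2-fold, the most abundant gene of each role and the paired genes. In each further list Hmox1, Slc7a11 and the 3 genes with the smallest adjusted p were named, and any other gene was named after its values were seen. Alternatives were another pseudocount, other filters, a replicate block, other scalings, no trend and leaving out samples.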

Additional observations from a re-analysis of the deposited data

How the results depend on the processing

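Of 33 called antioxidant genes, 27 stayed called in the same direction in all 14 alternatives run, and 6 lost the call in at least 1 (Gclc, Gpx4, Txn1, Txnrd2, Osgin1 and Me1). None of the 33 changed sign. Across leaving out each sample, 25 to 29 antioxidant genes were lower and 4 or 5 higher. Genes that were not called changed sign in a few cases, none of them called. Prdx2 (log2 fold change -0.01) was at 0.0356 under median-of-ratios scaling and ran from -0.0519 to 0.0186 over leaving out each sample, being above 0 without lysine replicate 1 (0.00997) or PBS replicate 3. Gpx3 (0.09) ran from -0.00499 to 0.21, being below 0 without lysine replicate 2 (-0.00230) or PBS replicate 3. Sod2 (0.06) ran from -0.0292 to 0.19, being below 0 without lysine replicate 1 (-0.00379) or PBS replicate 3. The count of other NRF2 targets called higher, 1, was 0 with no filter beyond a value above 0, 2 with the replicate block and 2 without replicate 3 of both groups, an alternative added after seeing the data. The other glutathione genes called higher, 4, were 2 at a filter of 5 TPM, where fewer genes were tested. No pair of genes changed the direction of its log2 ratio in the alternatives run for it. Same-numbered samples share only a number in the labels. Their deviations correlated by 0.171, 0.092 and 0.245 for numbers 1, 2 and 3, and each sample correlated best with its own number, a hint from the data and not the design. With the replicate block 30 antioxidant genes were lower and 6 higher, Mgst1 (adjusted p = 0.0223) and Gstm1 (0.0436) passing as lower and Txn2 (0.00651) as higher. Depth is unknown, so what it limits cannot be given.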

Other observations

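Of the 11 antioxidant genes that fell at least 2-fold, 10 had their lowest PBS value in PBS replicate 3, Glrx being the exception. Of all 846 genes that fell at least 2-fold, 220 did. The 3 lysine samples were closer together, with a summed TPM of the 43 genes of 10341 ± 93.2 with lysine and 15092 ± 1441 with PBS (SD, n = 3). This pattern was noticed in these data and was not tested.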
